A study of Mus musculus with 18 samples.

Results

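Splenic B cells of the transgenic founder line Tg9 were set against those of wild-type (WT) mice on arrays that read mature miRNAs and on arrays that read mRNAs. The comparison holds 12 of the 18 arrays of the series, chosen by their titles: 3 labelled Tg9-1, Tg9-2 and Tg9-3 and 3 labelled WT1, WT2 and WT3 on each of 2 kinds of array. The other 3 arrays of each kind come from a second founder line, Tg79. They enter this comparison through the normalization, the choice of tested probes and the estimate of the spread, all shared. The Tg9 mice carry a transgene that overexpresses the miRNA cluster miR-17~92 from the immunoglobulin heavy chain promoter and the Eμ enhancer, chosen for B-cell specificity. The WT mice carry no transgene by their labels. Strain, sex and age are not given in the sources used here. Within 1 founder line the transgene and the place where it inserted cannot be told apart. B cells were isolated from the spleen on magnetic columns, and Cy5-labelled amplified RNA made from total RNA was hybridised in a single colour. The series design counts 3 mice per group. Both kinds of array carry the same titles, but the labels do not state that equal titles mean the same mouse, so nothing was paired across kinds.

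MicroRNAs are short RNAs that guide Argonaute proteins to messenger RNAs, mostly through the seed, bases 2 to 8 from the 5′ end, and lower the output of the messages they bind. The miR-17~92 transcript is cut into several hairpins, which fall into the miR-17, miR-18, miR-19 and miR-92 seed families. The cluster is amplified in human B-cell lymphomas and is needed for the survival of developing B cells in mice. Cooperation of the miR-19 arms with Myc has been described in mouse B-cell lymphoma. Each hairpin gives a guide arm and a usually scarcer partner arm, both of which the arrays carry.

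The endogenous miR-17~92 cluster lies at chr14:115043684-115044496 on the plus strand (GRCm38.p6, from the first base of miR-17-5p to the last of miR-92a-3p). WT mice have this copy too, and the arrays do not tell its miRNAs from those of the transgene. Its 6 guide arms are printed because the comparison turns on them. The sequences are those of RefSeq, 5′ to 3′, with the seed in capitals.
miR-17-5p: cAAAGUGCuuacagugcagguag
miR-20a-5p: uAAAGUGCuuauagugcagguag
miR-18a-5p: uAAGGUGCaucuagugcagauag
miR-19a-3p: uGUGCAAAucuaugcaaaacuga
miR-19b-3p: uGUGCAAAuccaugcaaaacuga
miR-92a-3p: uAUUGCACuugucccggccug

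The genome holds close relatives of these arms outside the transgene. The miR-106a-363 cluster on the X chromosome gives miR-20b-5p, miR-106a-5p and miR-18b-5p, the miR-106b-25 cluster on chromosome 5 gives miR-106b-5p and miR-93-5p, and miR-92b-3p comes from chromosome 3. These relatives are printed because their values are set beside those of the cluster.
miR-106a-5p: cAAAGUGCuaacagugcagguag
miR-20b-5p: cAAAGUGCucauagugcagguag
miR-93-5p: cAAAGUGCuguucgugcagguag
miR-106b-5p: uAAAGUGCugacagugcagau
miR-18b-5p: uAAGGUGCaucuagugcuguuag
miR-92b-3p: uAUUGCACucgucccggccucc
By the count of bases that differ from the nearest arm of the cluster, miR-106a-5p lies 1 base and miR-20b-5p 2 bases from miR-17-5p. MiR-93-5p lies 3 bases and miR-106b-5p 5 bases from it. MiR-18b-5p lies 2 bases from miR-18a-5p, and miR-92b-3p lies 3 bases from miR-92a-3p.

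All values below are log2 spot intensities after quantile normalization within a kind of array. They compare arrays at the same probe and give no order between probes. A probe was tested where it exceeded a limit, the 95th percentile of the array's negative control spots, on at least 3 of the 9 arrays of its kind. This kept 501 of 1265 miRNA probes, of which 378 lay above the limit on all 6 Tg9 and WT arrays, and 18524 of 23473 mRNA probes, of which 16268 did. The share of miRNA probes above the limit was 33%, 40.7% and 42.6% on Tg9-1, Tg9-2 and Tg9-3, and 40.8%, 36.2% and 35.1% on WT1, WT2 and WT3. The share of mRNA probes was 77.2%, 78.5% and 77.5% on the Tg9 arrays and 76.4%, 73.6% and 71.3% on the WT arrays. The 3 Tg9 miRNA arrays shared 1 slide with WT1. WT2 lay on the slide of the Tg79 arrays and WT3 on its own. Each value is therefore also given against WT1 alone where it matters, and the spread among WT mice cannot be separated from that among slides. The labels name each array a separate mouse only through the design text, so p-values measure the spread between these arrays, part of which may be technical. Arrays count no molecules, and their number limits the precision: an exact permutation of 3 arrays against 3 cannot give a two-sided p below 0.1.

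The first question is whether the transgene's miRNAs are higher in Tg9 B cells. On the array labelled Tg9-1 they were, in every measured arm, while the arrays labelled Tg9-2 and Tg9-3 each lay above all WT arrays at 5 of 11 arms and within or below the WT range at the rest. The Tg9 mean was above the WT mean at 11 of 11 tested arms of the cluster, by 0.12 to 1.24 log2, and at 222 of all 501 tested miRNAs. The arm with 0.12 log2, miR-92a-1-5p, was above the limit on 1 Tg9, 2 Tg79 and 0 WT arrays. It thus passed the filter through transgenic arrays alone, and the counts and averages over the 11 arms include it. MiR-19a-5p, the twelfth arm on the array, was above the limit on none of the 6 arrays and was not tested. Limma's adjusted p was 0.99 at each of the 11 arms, so none passed the threshold. At 3 arms, miR-17-5p, miR-20a-5p and miR-20a-3p, all Tg9 arrays lay above all WT arrays, as they did at 15 (2.99%) of all tested miRNAs. Across all 501 tested miRNAs limma called 0 (0%) at an adjusted p under 0.05 and 3 (0.599%) at an unadjusted p under 0.05, against a smallest adjusted p of 0.99.

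MiR-17-5p, the first guide arm of the cluster and a known regulator of cell cycle genes, read 13.25, 10.60 and 10.86 on Tg9-1, Tg9-2 and Tg9-3, against 10.26, 10.57 and 10.34 on WT1, WT2 and WT3. The Tg9-1 array stood 2.86 log2 above the WT mean, and the array labelled Tg9-2 lay just above WT2, so the groups did not overlap but nearly touched. The difference of the means was 1.18 ± 0.63 log2 (SE, n = 3 each), with a 95% interval of -0.28 to 2.64, a fold of 2.27.

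MiR-20a-5p, which has the same seed as miR-17-5p, read 12.91, 10.39 and 10.52 in Tg9 and 9.91, 10.26 and 9.91 in WT. Its 3 Tg9 values all lay above the WT values, and again 1 of them, Tg9-1, stood far from the rest. It had the largest difference of the 11 arms, 1.24 ± 0.63 log2 (SE, n = 3 each; 95% interval -0.22 to 2.71).

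MiR-19b-3p, a guide arm of the miR-19 seed family, read 12.69, 10.57 and 10.44 in Tg9 and 10.08, 10.52 and 10.15 in WT. Tg9-1 was high, Tg9-2 lay just above WT2 and Tg9-3 inside the WT range. The difference was 0.99 ± 0.59 log2 (SE). MiR-19a-3p, which carries the same seed, read 9.67, 8.05 and 8.20 in Tg9 and 7.47, 8.10 and 7.43 in WT, with a difference of 0.97 ± 0.54 log2 (SE). At this arm the array labelled Tg9-2 lay inside the WT range and Tg9-3 just above it.

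MiR-18a-5p read 8.89, 7.75 and 7.87 in Tg9 and 7.25, 7.90 and 7.18 in WT. WT2 exceeded both lower Tg9 arrays here. MiR-92a-3p, the last guide arm of the transcript, read 9.72, 8.89 and 8.42 in Tg9 and 8.52, 8.68 and 8.54 in WT. It is the 1 arm at which the array labelled Tg9-3 lay below all 3 WT arrays, and its difference was the smallest of the guide arms, 0.43 ± 0.36 log2 (SE).

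On the partner arms, too, Tg9-1 was the highest array. MiR-17-3p read 9.07, 7.39 and 7.46 in Tg9 and 7.12, 7.56 and 7.21 in WT. MiR-20a-3p read 7.27, 6.37 and 6.47 in Tg9 and 6.14, 6.36 and 6.23 in WT, without overlap. MiR-18a-3p, miR-19b-1-5p and miR-92a-1-5p lay near the limit, with Tg9-minus-WT differences of 0.20, 0.19 and 0.12 log2, each with Tg9-1 above all WT arrays.

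**Figure D1:**
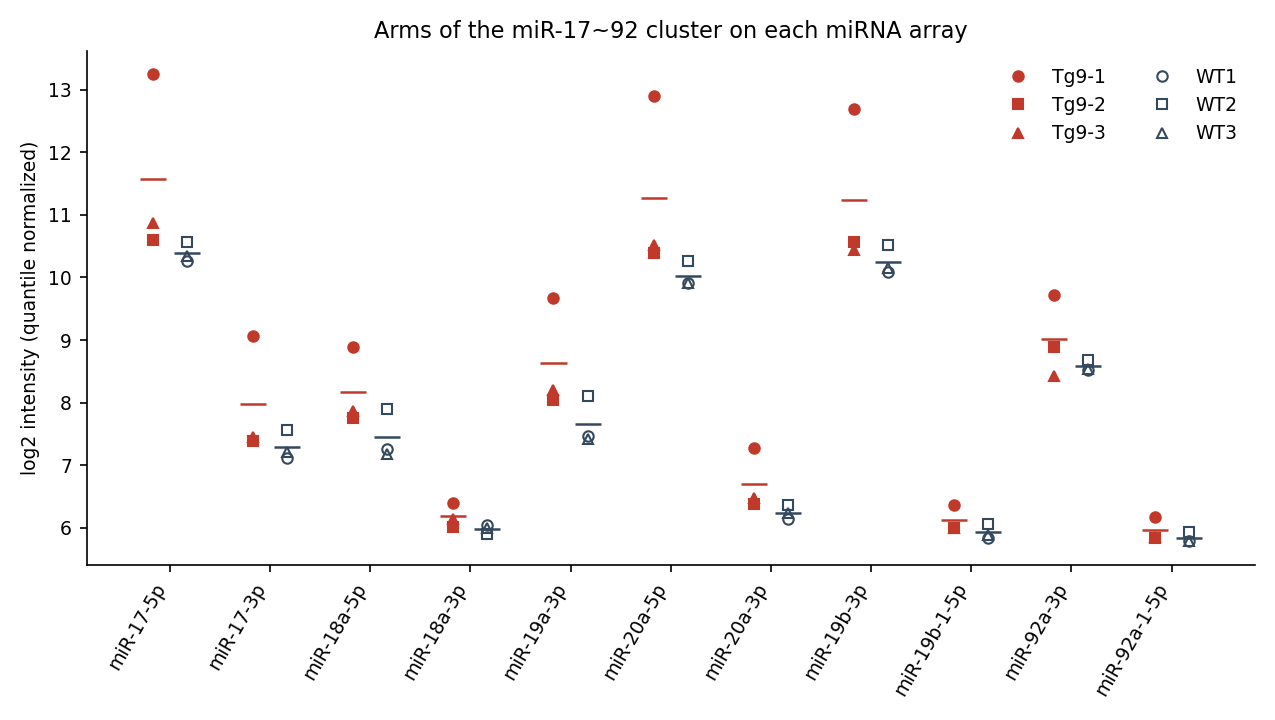
Each point is 1 miRNA array: log2 intensity (vertical axis) of the 11 tested arms of miR-17~92 (horizontal axis, in genome order of the hairpins), with filled points for Tg9 and open points for WT and a bar at each group's mean. The Tg9-1 array lies above all 3 WT arrays at 11 of 11 arms, while the arrays labelled Tg9-2 and Tg9-3 do so at 5 arms each.

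Averaged over the 11 tested arms, the cluster level was 9.31, 7.99 and 8.02 log2 on Tg9-1, Tg9-2 and Tg9-3 and 7.68, 7.99 and 7.70 on WT1, WT2 and WT3. Only Tg9-1 stood clear of WT: the array labelled Tg9-2 matched WT2 to the second decimal. The group means were 8.44 ± 0.75 in Tg9 and 7.79 ± 0.17 in WT (SD, n = 3 each), a difference of 0.65 log2, which was smaller than the SD among the Tg9 arrays. Against WT1, the WT array of the same slide, the difference was 0.76. Without Tg9-1 it was 0.24, and the differences of miR-17-5p, miR-20a-5p and miR-19b-3p were 0.33, 0.44 and 0.27.

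The arrays were also compared arm by arm with the WT mean. The median arm difference was 1.45 log2 on Tg9-1, 0.208 on Tg9-2 and 0.191 on Tg9-3, beside medians over all 501 tested miRNAs of -0.036, 0.00059 and -0.0047. The arms stood above all 3 WT arrays in 11, 5 and 5 cases of 11, and this was the case for 22.8%, 24% and 22.4% of all tested miRNAs on these arrays. The arms lay above the WT mean at 11, 11 and 10 of 11 on Tg9-1, Tg9-2 and Tg9-3, beside 214, 252 and 246 of the 501 tested miRNAs. The small differences on the arrays labelled Tg9-2 and Tg9-3 thus also ran one way. WT2 likewise stood above WT1 and WT3 at most arms, with a level of 7.99 against 7.68 and 7.70. Such a run is therefore not particular to Tg9 arrays, but WT2 lay on another slide than they did. WT1, on the slide of the Tg9 arrays, had a level of 7.68, against 7.99 on Tg9-2 and 8.02 on Tg9-3. Whether Tg9-2 and Tg9-3 differ from WT1 was not tested. Of 5 other scalings or corrections, 4 kept 11 of 11 (or 8 of 8) measured arms above the WT mean on Tg9-1. The exception was the deposited background column, under which only 3 arms could be tested and 1 of them was higher on Tg9-1. In the authors' values 8 of 8 arms were above the WT mean on each Tg9 array. Their medians were 1.94, 0.565 and 0.655 log2 there, against -0.552, -0.097 and -0.0373 for all miRNAs.

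MiR-17-5p read 13.12, 13.54 and 13.25 on the 3 arrays of line Tg79, so that Tg9-1 lay inside the Tg79 range and the arrays labelled Tg9-2 and Tg9-3 below it. Tested between the lines, the Tg79-minus-Tg9 difference of miR-17-5p was 1.73 ± 0.63 log2 (SE), with limma's adjusted p at 0.267. The arrays of the lines lay on different slides, so line and slide cannot be told apart in this difference.

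The second question is how far the relatives of the cluster outside the transgene followed it. Of the 4 seed families, 15 miRNAs were tested. On Tg9-1, miR-20b-5p, miR-106a-5p, miR-92b-3p and miR-18b-5p, which differ from a cluster arm by 1 to 3 bases, lay 2.30, 2.03, 1.33 and 1.08 log2 above the WT mean. MiR-93-5p, which also differs by 3 bases, lay 0.30 above it. MiR-20b-5p read 11.74, 9.88 and 10.08 in Tg9 and 9.34, 9.79 and 9.20 in WT, a difference of 1.12 ± 0.48 log2 (SE, n = 3 each; limma adjusted p = 0.99). MiR-106a-5p read 11.66, 10.00 and 10.04 in Tg9 and 9.57, 9.91 and 9.43 in WT, a difference of 0.93 ± 0.42 log2 (SE; limma adjusted p = 0.99). In both miRNAs all Tg9 arrays lay above all WT arrays, with Tg9-1 far above the rest. With normexp on the deposited background column the difference of miR-20b-5p was -0.01.

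MiR-92b-3p read 8.40, 7.41 and 7.05 in Tg9 and 6.93, 7.20 and 7.09 in WT, and miR-18b-5p read 7.84, 6.78 and 6.94 in Tg9 and 6.53, 7.03 and 6.71 in WT. Both were highest on Tg9-1. At miR-92b-3p the array labelled Tg9-2 also lay above all WT arrays and Tg9-3 inside the WT range, and at miR-18b-5p both lay inside it. MiR-19b-3p and miR-92a-3p have a second gene each in the miR-106a-363 cluster on the X chromosome, with the same mature sequence, so the arrays cannot tell the 2 sources apart. Of the arms found only in the X cluster, miR-92a-2-5p read 7.16, 7.20 and 7.51 in Tg9 and 7.36, 7.09 and 7.38 in WT, and miR-363-3p, which lies 10 bases from miR-92a-3p, differed by -0.10 log2. MiR-363-5p, of the same cluster, differed by 0.002 log2. MiR-106a-3p and miR-19b-2-5p were above the limit on none of the 6 arrays, and miR-18b-3p and miR-20b-3p were not tested either.

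In the miR-106b-25 cluster the differences were smaller. MiR-93-5p, 3 bases from miR-17-5p, read 9.82, 9.74 and 9.64 in Tg9 and 9.48, 9.67 and 9.40 in WT. Its Tg9 values were close to each other, and Tg9-3 lay inside the WT range. MiR-106b-5p read 9.51, 9.51 and 9.72 in Tg9 and 9.17, 9.82 and 9.29 in WT, with all Tg9 values inside the WT range. MiR-25-3p, of the miR-92 seed family, read 8.98, 9.28 and 9.28 in Tg9 and 8.82, 9.10 and 8.85 in WT, with Tg9-1 the lowest of its group. The partner arms miR-106b-3p and miR-25-5p differed by 0.09 and -0.05 log2, and miR-93-3p was above the limit on none of the 6 arrays. Whether a probe for a relative also takes up the transgene's own miRNA was not tested: the bases that differ and the values are given side by side.

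**Figure D2:**
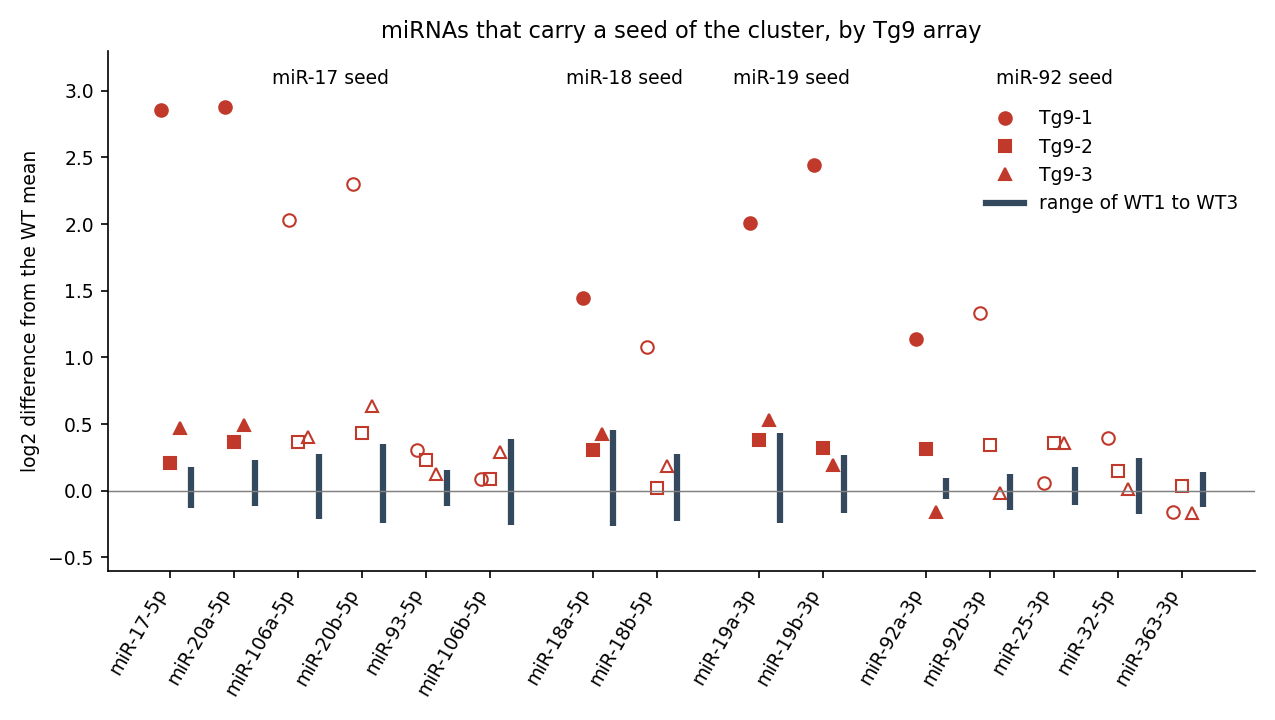
Log2 difference of each Tg9 array from the WT mean (vertical axis) for the 15 tested miRNAs with 1 of the 4 seeds of the cluster (horizontal axis); filled points are arms of the cluster, open points are relatives outside it, and vertical bars span the 3 WT arrays. Tg9-1 stands 2.30 log2 up at miR-20b-5p and 2.03 at miR-106a-5p, while miR-93-5p and miR-106b-5p stay within 0.5 log2 on all 3 Tg9 arrays.

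MiRNAs far outside the WT range were counted on each Tg9 array. At a margin of at least 1 log2 beyond the WT range, 10 miRNAs lay above it on Tg9-1, 0 on Tg9-2 and 3 on Tg9-3. The 10 on Tg9-1 were the cluster arms miR-17-5p, miR-20a-5p, miR-19b-3p, miR-19a-3p, miR-17-3p and miR-92a-3p, the relatives miR-20b-5p, miR-106a-5p and miR-92b-3p, and the myeloid miRNA miR-223-3p. The 3 on Tg9-3 were miR-3096a-3p, miR-3096b-3p and miR-677-3p. Below the WT range by the same margin lay miR-3473a and miR-3473b on Tg9-1, and miR-146a-5p and miR-146b-5p on Tg9-3. These single-array counts are descriptions, and the miRNAs in them were picked by their values.

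Over all 501 tested miRNAs, 25 (4.99%) had Tg9 and WT arrays that did not overlap, 15 higher in Tg9 (2.99%) and 10 lower (2%). Of these, 10 higher and 6 lower lay above the limit on all 6 arrays. Where groups do not differ, 3 arrays against 3 fail to overlap with a probability of about 0.1. The share of 4.99% is therefore no excess, and the miRNAs named here are descriptions. The 3 higher miRNAs with a difference of at least 1 log2 were miR-20a-5p, miR-17-5p and miR-20b-5p, all with the miR-17 seed. The other higher ones named by size were miR-106a-5p, miR-451a (0.61 log2, but 0.18 against WT1 on the same slide), miR-29c-3p (0.51 log2), miR-20a-3p (0.47 log2) and miR-713 (0.38 log2). The lower ones named by size beyond the next 4 were miR-6244 (-0.25 log2) and miR-3087-5p (-0.17 log2).

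The 4 lower miRNAs with a difference of at least 1 log2 were miR-3473a, miR-3473b, miR-5128 and miR-3473e. They share a run of 9 bases, GAGAUGGCU, and are printed with it in capitals (RefSeq, 5′ to 3′).
miR-3473a: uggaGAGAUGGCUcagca
miR-3473b: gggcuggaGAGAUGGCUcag
miR-3473e: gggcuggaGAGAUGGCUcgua
miR-5128: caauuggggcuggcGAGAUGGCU
They lie on chromosomes X, 10, 5 and 2. In the RefSeq table, the run is held by 4 of 1679 mature miRNA names (0.238%), which are these 4. Of the 501 tested probes 399 had a sequence in the table. The reverse complement AGCCAUCUC stood in 1 mature name, which was not tested. The run was looked for after the values had been seen and has no test.

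MiR-3473b read 10.78, 11.06 and 11.32 in Tg9 and 11.83, 11.94 and 12.69 in WT, a difference of -1.10 ± 0.53 log2 (SE, n = 3 each; limma adjusted p = 0.99). All 3 Tg9 arrays were low, and WT3 was the highest array. MiR-3473a read 9.77, 9.82 and 10.76 in Tg9 and 10.78, 10.78 and 12.13 in WT, a difference of -1.11 ± 0.61 log2 (SE). Tg9-3 came within 0.1 log2 of WT1 and WT2 here.

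MiR-5128 read 10.30, 10.26 and 10.83 in Tg9 and 11.00, 11.24 and 12.41 in WT. MiR-3473e read 10.97, 11.00 and 11.38 in Tg9 and 11.74, 11.66 and 13.12 in WT. At all 4 miRNAs WT3, alone on its slide, was the highest array, and against WT1 on the Tg9 slide the differences were -0.54 to -0.78 log2. Without WT3 they were -0.56 to -0.81. That these 4 lay below WT on each Tg9 array follows from how they were picked and gives no contrast with the cluster arms. With normexp on the deposited background column the difference was 1.66 log2 at miR-3473b and 0.62 at miR-5128, in the other direction, and -2.19 at miR-3473a, in the same direction. MiR-3473c and miR-3473d, whose mature sequences in the RefSeq table lack the run, differed by -0.04 and 0.08 log2.

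**Figure D3:**
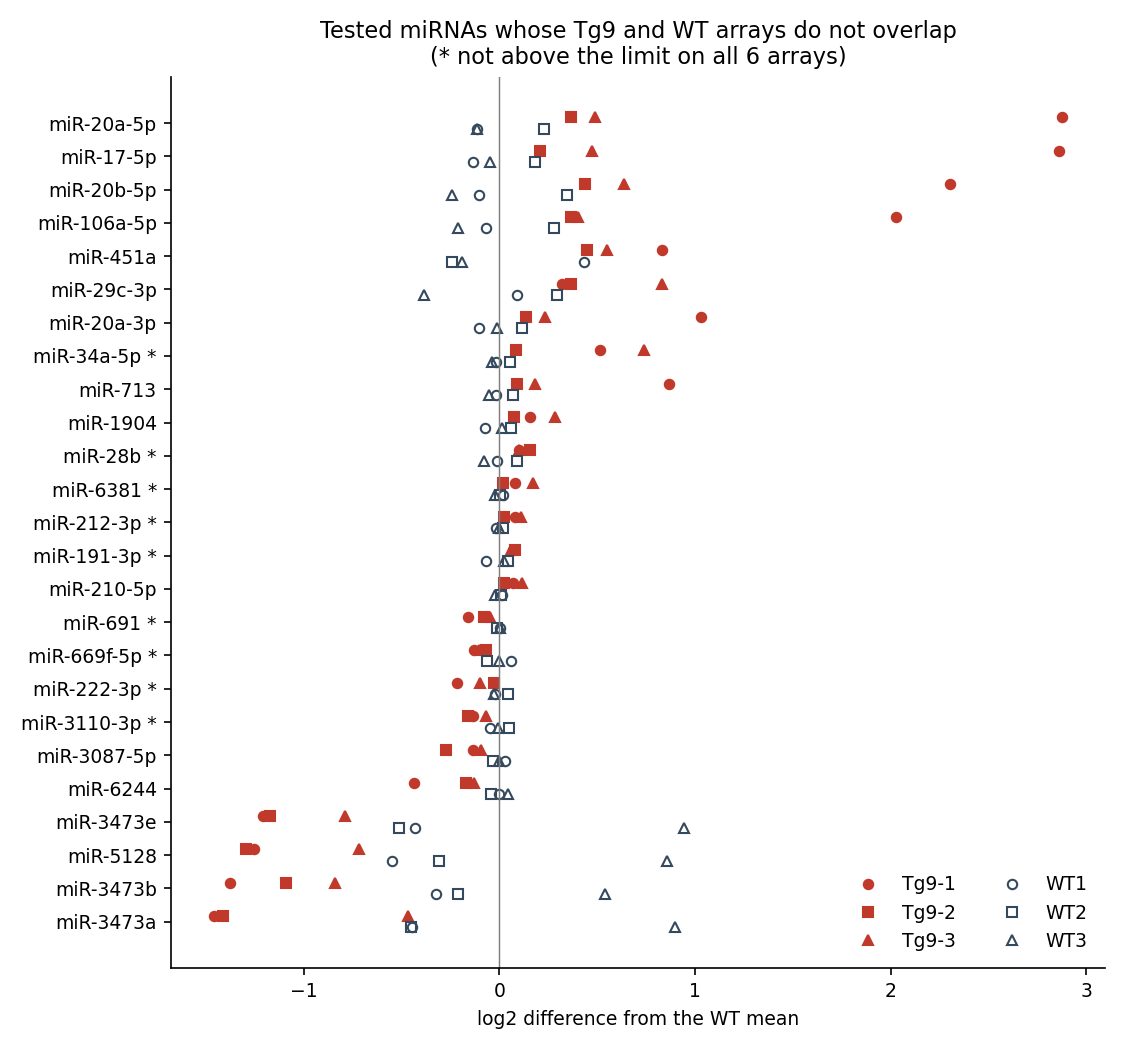
The 25 tested miRNAs whose Tg9 and WT arrays do not overlap (vertical axis; an asterisk marks those not above the limit on all 6 arrays), with the log2 difference of each of the 6 arrays from the WT mean (horizontal axis). The miR-17 seed miRNAs at the top are set apart mainly by Tg9-1. At the 4 miRNAs with the shared run at the bottom, WT3 is the highest array. All 25 were picked because the groups do not overlap.

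Among miRNAs with known roles in lymphocytes, miR-21a-5p, an anti-apoptotic miRNA induced by activation, read 11.83, 10.83 and 11.74 in Tg9 and 10.39, 10.86 and 10.26 in WT. It was high on the arrays labelled Tg9-1 and Tg9-3, and Tg9-2 lay inside the WT range. The difference was 0.96 ± 0.34 log2 (SE, n = 3 each; limma adjusted p = 0.99), and it is 1 of the 3 miRNAs at an unadjusted p under 0.05, beside miR-6244 and miR-6366. MiR-6244 was lower in Tg9 by value, at 8.59, 8.85 and 8.89 against 9.02, 8.98 and 9.07 in WT. MiR-6366 read 14.16 on all 3 Tg9 arrays, a rank it also held on WT2, against 13.54 on WT1 and 13.25 on WT3. Quantile normalization gives equal ranks equal values, so its SD of 0 among the Tg9 arrays does not measure their spread in signal. The unadjusted p of miR-6366 from limma draws on that SD.

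MiR-34a-5p, a p53-induced miRNA that restrains B-cell development in mice, was above the limit on 3 of 3 Tg9 arrays and on 0 of 3 WT arrays. It read 6.49, 6.06 and 6.71 in Tg9, against 5.96, 6.03 and 5.94 in WT, where it was not above background. It thus passed the filter through transgenic arrays alone. Before normalization the limit was 6.02, 5.98 and 5.93 log2 on Tg9-1, Tg9-2 and Tg9-3, and higher, 6.12, 6.02 and 6.22, on WT1, WT2 and WT3, except that Tg9-1 and WT2 were alike. The Tg9 mean of miR-34a-5p was 1.3-fold the mean of the lowest signals above the limit on the WT arrays, which is no lower bound on the group difference. The difference of the means was 0.45 log2, with a 95% interval of -0.13 to 1.02 that includes no change (limma adjusted p = 0.99). In the authors' values it was 1.75 log2.

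MiR-146a-5p, a brake on NF-κB signalling, read 10.34, 11.48 and 8.92 in Tg9 and 10.69, 11.06 and 10.39 in WT. The array labelled Tg9-3 was low and the array labelled Tg9-2 high, so that the Tg9 spread enclosed WT. Its family member miR-146b-5p showed the same order, with 8.74, 9.36 and 7.31 in Tg9 and 8.57, 9.28 and 8.79 in WT. MiR-150-5p, abundant in mature lymphocytes, read 13.12, 13.25 and 11.88 in Tg9 and 12.48, 13.11 and 12.27 in WT. MiR-155-5p, which rises on B-cell activation, read 7.97, 8.34 and 8.57 in Tg9 and 8.13, 8.32 and 7.93 in WT. In all of the 10 miRNAs of the lymphocyte list limma called 0. The Tg9 mean was above the WT mean at 5 of them, beside 222 of all 501 tested miRNAs.

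The members of the let-7 and of the miR-30 and miR-26 families lay on one side of the WT mean on a given array, and on opposite sides between Tg9 arrays. The let-7 family, which limits growth-related genes such as Ras and Myc, stood above the WT mean at 9 of 9 members on the array labelled Tg9-2, at 0 of 9 on Tg9-1 and at 0 of 9 on Tg9-3. Its level, the mean over members, was 9.88, 10.81 and 9.67 in Tg9 and 10.06, 10.55 and 10.03 in WT, so the Tg9 arrays lay on both sides of WT and the means differed by -0.09. On Tg9-3 it was below all WT arrays at 8 of 9 members, and on Tg9-2 above all of them at 7. Of all tested miRNAs, 27.1% lay below all WT arrays on Tg9-3 and 24% above all of them on Tg9-2. For this family and those below, the counts above the WT mean stand beside 214, 252 and 246 of all 501 tested miRNAs on Tg9-1, Tg9-2 and Tg9-3.

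The miR-30 and miR-26 families, of which miR-26 targets the histone methyltransferase Ezh2, repeated this with 7 of 7 members above the WT mean on Tg9-2 and 0 of 7 on each of the others. Their level was 9.76, 10.53 and 9.57 in Tg9 and 10.03, 10.38 and 9.92 in WT. The miR-15/16 family, which restrains Bcl2 and cyclins, had a level of 8.33, 8.98 and 8.29 in Tg9 and 8.61, 9.10 and 8.63 in WT. Here Tg9-1 and Tg9-3 lay below all WT arrays while the array labelled Tg9-2 lay inside the WT range. The miR-181 family, which tunes lymphocyte receptor signalling, ran the other way: 4 of 4 members were above the WT mean on Tg9-1 and on Tg9-3, and 1 of 4 on Tg9-2. Of the 5 members of the miR-23/27/24 list, 4, 4 and 1 were above the WT mean on Tg9-1, Tg9-2 and Tg9-3. Their median differences there were 0.82, 0.287 and -0.328 log2. With the deposited background column 4 were tested, and 1, 2 and 1 were above the WT mean.

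None of the family members named passed limma's threshold, and the lists were described, not tested. The counts of let-7 and of miR-30 and miR-26 changed by at most 1 member on any Tg9 array with no background correction, 75th percentile scaling or cyclic loess. With the background column, where 4 members of the miR-30 and miR-26 list were tested, 3 were above the WT mean on Tg9-1, 1 on Tg9-2 and 2 on Tg9-3.

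Markers of other cells that a spleen preparation could hold were read next. Of 11 such miRNAs on the array 8 were tested, and their mean level was 6.78, 6.51 and 6.53 in Tg9 and 6.53, 6.44 and 6.41 in WT. The red-cell miRNAs miR-144-3p and miR-144-5p were above the limit on none of the 6 arrays. MiR-451a, also a red-cell miRNA, read 8.05, 7.66 and 7.77 in Tg9 and 7.65, 6.97 and 7.02 in WT, where WT1 on the same slide lay just under the lowest Tg9 array. The myeloid miR-223-3p read 9.10, 7.47 and 6.57 in Tg9 and 7.39, 7.64 and 7.16 in WT. It was high on Tg9-1, the array with the high cluster level, and its part in the values of that array was not tested. The endothelial miR-126-3p differed by 0.14 log2. The stromal miR-143-3p, miR-145a-5p, miR-199a-5p, miR-214-3p and miR-125b-5p differed by 0.04, -0.03, 0.03, 0.04 and 0.01 log2. In bulk samples fewer cells of a type and less RNA per cell cannot be told apart.

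The third question is what differs among the messenger RNAs of Tg9 and WT B cells. Limma called 0 of 18524 tested mRNA probes (0%) at an adjusted p under 0.05, against a smallest adjusted p of 0.229, while 3023 (16.3%) had an unadjusted p under 0.05. Of 18521 probes with a value on all 6 arrays, 5224 (28.2%) had groups that did not overlap, 2287 (12.3%) higher in Tg9 and 2937 (15.9%) lower. Unlike the miRNA share, 28.2% lay above the probability of about 0.1 given above for groups that do not differ. The excess was not tested. At a difference of at least 1 log2, 107 of the probes without overlap were higher and 170 lower. The files used here do not pair the probe identifiers with genes, so no gene, pathway or reported target of the cluster could be named among them, and the B-cell identity of the samples was not checked against marker messages.

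The largest higher difference without overlap was at probe M200008372, which read 13.14, 8.23 and 12.03 in Tg9 and 7.64, 7.12 and 7.10 in WT. Tg9-1 and Tg9-3 were high by more than 4 log2, while the array labelled Tg9-2 lay 0.94 log2 above the WT mean. The difference was 3.85 ± 1.31 log2 (SE, n = 3 each; limma adjusted p = 0.253). Probe M400010831 read 12.76, 7.63 and 11.29 in Tg9 and 7.35, 7.25 and 7.47 in WT, again with Tg9-2 next to WT (3.20 ± 1.22 log2, SE; limma adjusted p = 0.275).

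On the lower side, probe M300005207 read 8.12, 10.04 and 7.30 in Tg9 and 10.85, 10.92 and 11.26 in WT, a difference of -2.52 ± 0.62 log2 (SE; limma adjusted p = 0.229). Probe M400016343 read 7.33, 8.15 and 7.42 in Tg9 and 10.02, 9.19 and 10.10 in WT, a difference of -2.14 ± 0.32 log2 (SE; limma adjusted p = 0.229). At this last probe all 3 Tg9 arrays lay more than 1 log2 below the lowest WT array, so it was set apart by each Tg9 array and not only by Tg9-1 and Tg9-3.

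The arrays labelled Tg9 were not alike over the whole set of messages. Measured from the mean of each pair of WT arrays in turn, 747 to 898 probes lay at least 2-fold away on Tg9-1, 39 to 169 on the array labelled Tg9-2 and 1187 to 1469 on Tg9-3. The WT array left out of each pair had 121 (WT1), 15 (WT2) and 222 (WT3) such probes. The array labelled Tg9-2 thus had a count within the range of single WT arrays, and Tg9-1 and Tg9-3 had at least 3 times the highest of them. Among the probes without overlap, Tg9-2 was the Tg9 array nearest to WT at 61% of the higher and 63.7% of the lower ones. Tg9-3 was the nearest at 8.92% and 11.3%.

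**Figure D4:**
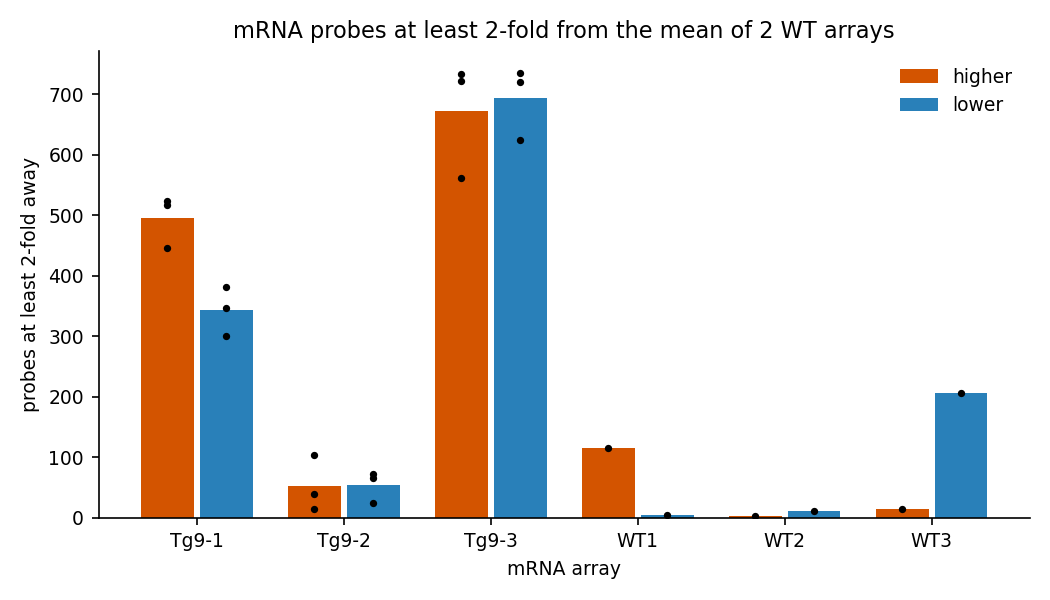
Number of tested mRNA probes at least 2-fold above (orange) or below (blue) the mean of 2 WT arrays (vertical axis), for each mRNA array (horizontal axis); for Tg9 arrays the bar is the mean over the 3 WT pairs and the points are the single pairs, and a WT array is set against the other two. The array labelled Tg9-2 lies with the WT arrays, while Tg9-1 and Tg9-3 stand above them.

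Distances between arrays showed the same order for messages but another for miRNAs. On mRNA arrays the median absolute log2 difference over tested probes was 0.0797 to 0.1327 between Tg9-2 and the WT arrays, 0.1231 to 0.1719 for Tg9-1 and 0.1613 to 0.2008 for Tg9-3. Between WT arrays it was 0.0648 to 0.1126, so that Tg9-2 lay partly within the WT spread and Tg9-3 outside it. The Tg9 arrays were 0.1144 to 0.1285 from each other. On miRNA arrays the Tg9 arrays were 0.1553 to 0.1724 from each other and the WT arrays 0.0904 to 0.2086. WT1 and WT3 lay together and WT2 apart, nearest to Tg9-2 at 0.0988.

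The median SD of a probe among 3 arrays was 0.116 log2 in Tg9 and 0.0811 in WT for messages, and 0.143 in Tg9 and 0.144 in WT for miRNAs. The array labelled Tg9-3 therefore combined a cluster level near WT on the miRNA array with the largest distance from WT on the mRNA array. Whether the 2 arrays of that title hold RNA of the same mouse is not stated in the labels.

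**Figure D5:**
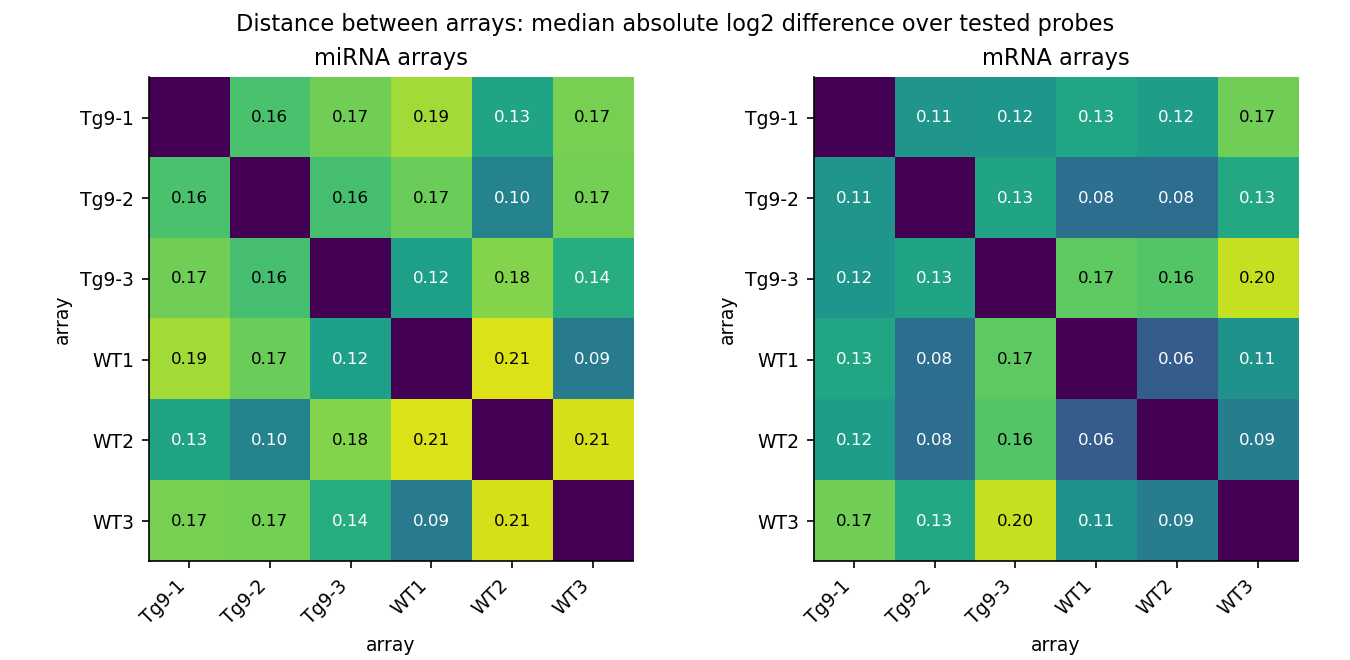
Distance between each pair of the 6 Tg9 and WT arrays, as the median absolute log2 difference over tested probes, for miRNA arrays (left) and mRNA arrays (right); both axes list the arrays, and brighter cells are farther apart. On mRNA arrays Tg9-2 is 0.08 from WT1 and WT2 and Tg9-3 is 0.16 to 0.20 from WT, while on miRNA arrays the widest pairs include WT2 against WT1 and WT3 at 0.21.

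With 1 array left out, the count of called messages was 0 to 357. The 357 were called without the array labelled Tg9-2. It was the mRNA array nearest to WT, so leaving it out leans towards a larger difference.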

How the data were processed

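Per the file headers, the scanner output that the authors deposited gives a median intensity for every spot of the one-colour Cy5 arrays, not normalized. Per the labels' protocols, amino allyl aRNA was made from total RNA of splenic B cells. The series tables the authors deposited hold log2 values; how these were made is not given in the labels. The miRNA table has every value 5 rows from its probe (Spearman's rho with the scanner values 0.142 to 0.171 as given, 1 after moving), so these tables served only as an alternative, with the rows moved for miRNA.

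From the scanner files, normexp (offset 50, on the foreground) was applied with limma 3.58.1 in R 4.3.3, followed by log2, the mean of each probe's spots and quantile normalization, separately for miRNA and mRNA arrays. The deposited background column followed the spot itself (r of log2 values 0.976 to 0.994 on miRNA and 0.901 to 0.968 on mRNA arrays, across spots) and was not subtracted. The limit came from 24 (miRNA) and 96 (mRNA) negative control spots. Marked spots were dropped, which touched 6 tested mRNA probes, and 13 miRNA probes carry more than 1 name. One limma model per kind held the means of the 3 groups, and Tg9 minus WT was tested (two-sided), with p adjusted by Benjamini and Hochberg over all tested probes and a threshold of 0.05. Groups were said not to overlap where all 3 Tg9 values lay beyond all 3 WT values by more than 0.001 log2, since arrays that share a rank differ by less. The fit was tested on simulated data.

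Members and lists were chosen with earlier results of these data known. The naming rule took all arms of the 3 clusters, the tested markers of other cells, up to 6 miRNAs of each other list and the largest differences without overlap, 8 each way for miRNAs; other miRNAs, among them those counted on single arrays and miR-3473c and miR-3473d, were chosen after their values were seen. Numbers in the titles were not used to pair the arrays. Same-numbered deviations correlated at -0.409, 0.37 and 0.377 on miRNA arrays and at -0.141, -0.0587 and -0.0658 on mRNA arrays. The closest WT partner of a Tg9 array bore the same number only for replicate 2 on miRNA arrays. Deviations from means of 3 arrays cannot show that no pairing exists.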

Additional observations from a re-analysis of the deposited data

How the results depend on the processing

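Limma's 0 calls held for miRNAs under every alternative except when Tg9-2 and Tg9-3 were both left out, with the lone Tg9-1 array taken to vary as the other groups do: 3 miRNAs were then called, miR-17-5p, miR-20a-5p and miR-106a-5p, with adjusted p of 0.0104, 0.0277 and 0.0395. For mRNA probes 6 were called with the background column, 44 without those 2 arrays and 0 to 357 with 1 array left out. With the replicate block 0 miRNA and 0 mRNA probes were called, so the pairing changed no call. The count of miRNAs without overlap was 6 with the background column, 45 with 75th percentile scaling, 92 with no filter, 16 above the limit on all 9 arrays, 222 with Tg9-1 as the lone Tg9 array and 25 to 138 with 1 array left out (highest without WT2). The count of mRNA probes without overlap was 3344 with the background column, 12379 without those arrays and 5199 to 8924 with 1 array left out (highest without Tg9-2); fewer arrays make overlap rarer by construction. The cluster level differed by 1.53 without those arrays, by 0.24 without Tg9-1 and otherwise by 0.19 (background column, 3 arms) to 0.95 (the authors' values). Of 58 named miRNAs and 4 mRNA probes, 5 turned sign with 75th percentile scaling. Of 24 miRNAs and 4 mRNA probes 10 did with the background column, and of 58 miRNAs 7 with slide as a factor. With 1 array left out 0 to 9 did, 9 without Tg9-3 and 8 without WT2. The cause was not tested, apart from the smaller number of probes or arrays that a filter or a left-out array brings with it. Signal near the limit bounds what can be said of the partner arms.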
